A study of Homo sapiens with 9 samples.

Results

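The genes described here are 28 enzymes, regulators and carriers of cholesterol and fatty acid synthesis that stand under the control of the sterol regulatory element binding proteins (SREBPs). They were taken by symbol from a list, with no threshold on measured values, although the list was drawn up with earlier results of these data known. All 28 had an entry among the 23284 gene symbols of the RNA-Seq data, each on 1 line. Of these, 15 are enzymes of the sterol pathway, 9 belong to the fatty acid branch including the supply of its acetyl units, and 4 are regulators or sterol carriers. RNA was measured in 9 cultures of HT-29, an established human colon cancer line grown as a monolayer in medium with 10% fetal bovine serum. Triplicate cultures received vehicle (DMSO, 0 µM, here the control), 5 µM or 10 µM 5-aza-deoxycytidine (5-Aza) for 5 days, according to the labels and the methods of the study. 5-Aza is a nucleoside analog that is built into DNA, traps the DNA methyltransferases and thereby lowers DNA methylation. All groups are 1 cell line and share medium and serum, so the comparisons are between doses. The vehicle is named for the control only, and batches of culture or library are not given.

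Cholesterol and fatty acids are both built from acetyl-CoA. In the sterol branch, acetyl units are condensed to HMG-CoA, reduced to mevalonate, and turned through isoprenoid phosphates into squalene, which is oxidized, closed to lanosterol and trimmed to cholesterol. In the fatty acid branch, acetyl-CoA is carboxylated to malonyl-CoA, assembled into palmitate, and then elongated and desaturated. Most of these enzymes are transcribed under the SREBPs, membrane-bound transcription factors that are carried from the endoplasmic reticulum to the Golgi and cut free when membrane sterol is low. INSIG proteins hold them back when sterol is plentiful. SREBP-2 (gene SREBF2) is known chiefly for the sterol enzymes and SREBP-1 (gene SREBF1) chiefly for the fatty acid enzymes. In colon epithelium and its tumors both branches are active.

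The values are FPKM as computed by the authors, that is fragment numbers scaled for transcript length and for library size, which can be set side by side between genes. An FPKM here is a relative value, since the values of a library sum to between 3.69e+09 and 5.91e+09. The files hold no fragment counts. From the steps between low values, a library was estimated to hold between 11251041 (10 µM replicate 1) and 30775085 (5 µM replicate 3) fragments, and 25 of the 28 genes rested on over 100 estimated fragments in every library, the others being HSD17B7, FADS1 and FADS2. In the 10 µM group, replicate 2 stood apart from replicates 1 and 3. Its median-of-ratios factor, the median ratio of a library's genes to their mean over libraries, was 1.05, against 0.83 and 0.85 for the other two, 1.03 to 1.09 in the control and 0.99 to 1.07 at 5 µM. All 9 colon epithelium markers examined were above 0 in every library, while their summed FPKM ranged from 80753000 to 97134800 in the control, from 33364500 to 37832000 at 5 µM and from 26297300 to 46646500 at 10 µM. KRT8 and KRT18 carried most of that sum, with means of 39381700 and 32981700 in the control against 12559800 and 10580900 at 5 µM. Of the 9, 6 fell and 2 (CEACAM5 and CDX1) rose at 5 µM vs. 0 µM, and EPCAM did not pass the test. Of the markers of other cell types, 1 of 4 for fibroblasts (COL1A1), 1 of 4 for leukocytes (CD68), 2 of 3 for endothelium, 1 of 3 for adipocytes and 1 of 3 for hepatocytes were above 0 in every library, and PTPRC, CD3E, DCN, CDH5, LEP and ALB were listed at 0 in at least 1 control culture. Taken in the order 0, 5 and 10 µM, the summed FPKM ranged over 5831 to 9394, 32827 to 46444 and 18633 to 25627 for fibroblasts, over 122085 to 128554, 654664 to 693853 and 192055 to 344819 for leukocytes, and over 1901 to 5031, 9786 to 12404 and 3267 to 3588 for endothelium. For adipocytes, of which PLIN1 carried the sum while LEP was listed at 0 in each culture except those of 5 µM, they were 44785 to 50759, 23054 to 24874 and 22964 to 25919, and for hepatocytes 1058480 to 1215480, 1946680 to 2241340 and 1087680 to 1502220. Their part in the results was not tested. All cultures are 1 cell line, and in bulk RNA a change in the number of cells expressing a marker and in its RNA per cell cannot be told apart.

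Members were compared on log2(FPKM + 1) in limma, with p-values adjusted over all symbols tested. "Rose" and "fell" are used for an adjusted p of at most 0.05, and "called" for genes that also changed more than 2-fold. The 3 comparisons share samples, and their values are given side by side without being set against each other.

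To show what these genes carry at their starts, 5 promoter windows are printed from RefSeq (build GRCh38.p14), each from 250 bases before the start of the transcript to 50 bases after it, read along the gene's strand. LSS and TM7SF2 were the sterol enzymes with the largest change at 5 µM, SREBF2 carries a sterol element, INSIG1 is a sterol feedback regulator, and FADS2 had the largest change of all. Capitals mark the sterol element TCACNCCAC and the CCAAT box (CCAAT, or ATTGG where it lies on the opposite strand).
LSS promoter, chr21:46228725-46229024, minus strand: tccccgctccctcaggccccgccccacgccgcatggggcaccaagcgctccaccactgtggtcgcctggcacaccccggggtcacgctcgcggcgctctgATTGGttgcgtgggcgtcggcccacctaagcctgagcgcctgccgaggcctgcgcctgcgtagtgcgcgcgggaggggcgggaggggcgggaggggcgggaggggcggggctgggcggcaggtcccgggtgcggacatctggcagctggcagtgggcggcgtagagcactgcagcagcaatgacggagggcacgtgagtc
TM7SF2 promoter, chr11:65111622-65111921, plus strand: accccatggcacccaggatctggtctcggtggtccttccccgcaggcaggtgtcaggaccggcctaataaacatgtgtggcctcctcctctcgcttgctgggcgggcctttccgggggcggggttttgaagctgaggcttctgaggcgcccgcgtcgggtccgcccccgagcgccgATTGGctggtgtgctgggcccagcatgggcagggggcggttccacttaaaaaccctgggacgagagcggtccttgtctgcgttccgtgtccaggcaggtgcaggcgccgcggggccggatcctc
SREBF2 promoter, chr22:41832855-41833154, plus strand: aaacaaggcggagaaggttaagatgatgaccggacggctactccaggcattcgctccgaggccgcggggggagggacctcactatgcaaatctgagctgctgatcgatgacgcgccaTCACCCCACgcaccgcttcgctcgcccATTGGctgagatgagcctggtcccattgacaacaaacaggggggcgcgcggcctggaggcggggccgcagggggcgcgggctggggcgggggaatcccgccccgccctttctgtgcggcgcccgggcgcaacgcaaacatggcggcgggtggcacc
INSIG1 promoter, chr7:155297628-155297927, plus strand: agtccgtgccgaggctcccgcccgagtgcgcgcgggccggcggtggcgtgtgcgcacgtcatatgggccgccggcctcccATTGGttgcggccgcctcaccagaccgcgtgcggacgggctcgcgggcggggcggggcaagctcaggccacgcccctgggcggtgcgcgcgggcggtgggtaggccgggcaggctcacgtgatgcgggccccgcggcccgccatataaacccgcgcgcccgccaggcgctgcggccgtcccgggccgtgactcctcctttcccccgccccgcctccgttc
FADS2 promoter, chr11:61815953-61816252, plus strand: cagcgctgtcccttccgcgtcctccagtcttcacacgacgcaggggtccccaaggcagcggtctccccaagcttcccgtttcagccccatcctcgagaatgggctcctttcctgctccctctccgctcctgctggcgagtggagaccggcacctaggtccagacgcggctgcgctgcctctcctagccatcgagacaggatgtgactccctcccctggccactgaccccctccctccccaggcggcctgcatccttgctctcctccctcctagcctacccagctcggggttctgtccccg

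Windows were found for 25 of the 28 genes, some of which have several starts, giving 34 windows in all. FDFT1, SQLE and FASN had no window. The sterol element, searched on both strands, was found in 1 gene, SREBF2, where TCACCCCAC lies 133 bases before the start, and in 1.13% of all 35116 windows. CCAAT stood in 22 of the 34 windows (64.7%) against 34.6% of all windows, and NSDHL and MVK each had 5 of them. The GC box GGGCGG was in 30 windows (88.2%) against 44.95% of all, and the E-box CACGTG in 2, those of LSS and INSIG1 (5.88%), against 7.26%. Each motif was searched on its own, so that overlapping matches count under each, and a match is a match of letters only. Variants of these letters and sequence outside the windows were not searched, so no match does not mean no site. CpG-rich windows, taken as at least 50% G+C with an observed over expected CpG ratio of at least 0.6, made up 29 of the 34 (85.3%) against 46.9% of all windows. The exception among the genes was FADS2, whose 2 windows had ratios of 0.593 and 0.438. The former is the window printed above, and the latter, not printed, holds a CCAAT box. Each of the other 24 genes had at least 1 CpG-rich window. Only starts with a window were examined, so any other start of FADS2 or of the other genes is not covered. DNA methylation was not analysed here.

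**Figure D1:**
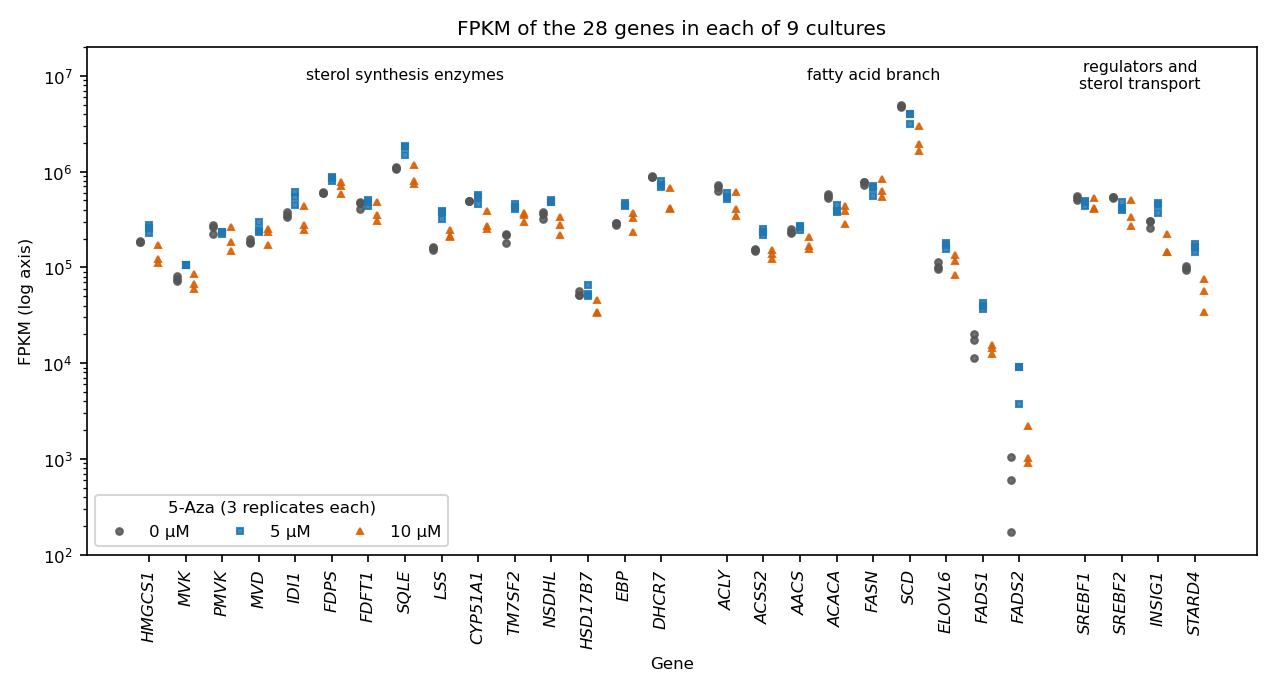
FPKM of each of the 28 genes (x axis) in each of the 9 cultures on a log axis, with grey circles for 0 µM, blue squares for 5 µM and orange triangles for 10 µM 5-Aza, 3 replicates each. SCD had the highest FPKM of the genes and FADS2 the lowest. For each gene that rose at 5 µM vs. 0 µM, all 5 µM points lie above all control points. For DHCR7, ACLY, ACACA, FASN, SCD, SREBF1 and SREBF2 all 5 µM points lie below all control points. The share of all symbols without such overlap was not computed.

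In the control, the genes spanned a wide range of FPKM. SCD, the desaturase that makes oleate from stearate, was the highest of the 28 with 4806090 ± 114743 (SD, n = 3), followed by SQLE with 1087950 ± 26252 and DHCR7 with 883251 ± 10279. FADS1 with 16390 ± 4481 and FADS2 with 606 ± 433, the desaturases of polyunsaturated fatty acids, were the lowest. Over the 9 libraries, SCD ranked between 112 and 321 among all symbols by FPKM and FADS2 between 13267 and 16139.

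The comparison of 5 µM with 0 µM 5-Aza asks how the lower dose changed these genes. Of the 28 genes, 16 rose and 5 fell, while 21.3% of all 20051 symbols tested rose and 17.7% fell. Of the 15418 symbols above 0 in all 6 samples, as the 28 genes were, 3135 rose and 3552 fell. The sterol branch accounted for most of the rise, with 10 of its 15 enzymes higher and 1 lower. The fatty acid branch was split, with 4 of 9 higher and 3 lower, and of the 4 regulators and carriers 2 rose and 1 fell. Past the 2-fold threshold, 4 genes were called up, LSS, TM7SF2, FADS1 and FADS2, and 0 were called down in limma (also 0 at an unadjusted p under 0.05), against 14.1% and 2.17% of all symbols. The median log2 fold change was 0.47 in the sterol branch, 0.15 in the fatty acid branch and 0.19 in the regulators, beside 0.14 over all symbols tested and -0.04 over those above 0 in all 6 samples. After median-of-ratios scaling 16 rose and 4 fell (23% and 18% of all symbols), DHCR7 being the fall that was lost. After scaling to equal library totals, which moved the median of all symbols by 0.29 on the log2 scale, 19 rose and 0 fell (33% and 7.73%, and 20 and 0 at an unadjusted p under 0.05 in limma), with 12 of 15 sterol enzymes higher.

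**Figure D2:**
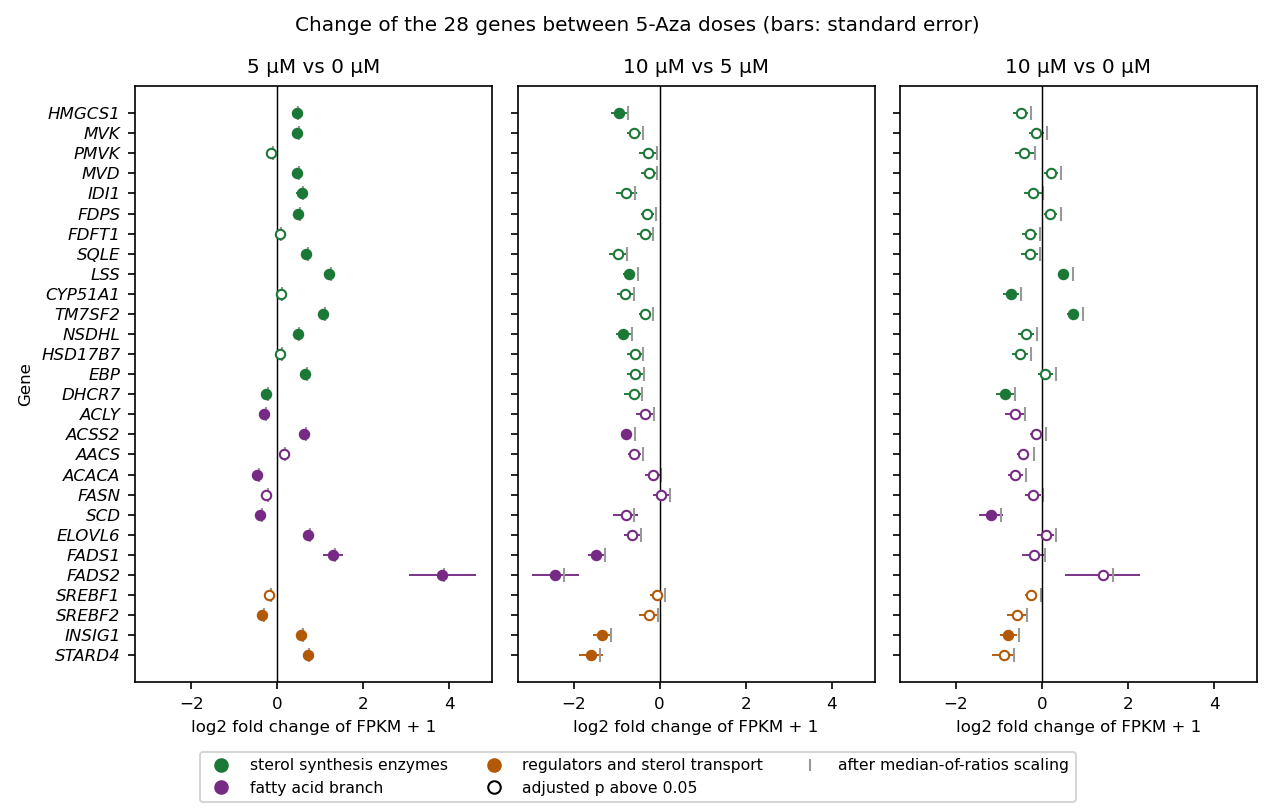
Log2 fold change of FPKM + 1 (x axis) of each gene (y axis) for 5 µM vs 0 µM, 10 µM vs 5 µM and 10 µM vs 0 µM 5-Aza, with standard errors from limma. Filled circles passed an adjusted p of 0.05, open circles did not, and grey ticks give the value after median-of-ratios scaling; most sterol enzymes lie right of 0 in the left panel and all lie left of 0 in the middle one.

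Among the first enzymes of the sterol branch, HMGCS1, MVK and MVD rose at 5 µM and PMVK did not pass the test. HMGCS1, the synthase that makes HMG-CoA, had an FPKM of 182536, 186661 and 186285 in the control, 227315, 274706 and 259105 with 5 µM and 121225, 170864 and 110129 with 10 µM. All 5 µM replicates exceeded all control replicates, and all 10 µM replicates lay below both groups. Its log2 fold change was 0.45 (SE 0.08, adjusted p = 0.0071) for 5 µM vs. 0 µM, -0.94 (SE 0.19, adjusted p = 0.0316) for 10 µM vs. 5 µM and -0.49 (SE 0.18, adjusted p = 0.0947) for 10 µM vs. 0 µM. MVK, which phosphorylates mevalonate, had 72968, 75475 and 81212 in the control, 105828, 104912 and 106092 with 5 µM and 59675, 86134 and 66335 with 10 µM. The 5 µM replicates were close to each other and above every other culture, and the 10 µM replicates straddled the control. MVK changed by 0.47 (SE 0.07, adjusted p = 0.00342) at 5 µM vs. 0 µM. MVD, which decarboxylates mevalonate diphosphate, had 179303, 183553 and 199996 in the control, 298758, 235746 and 244241 with 5 µM and 171042, 251032 and 235672 with 10 µM. Its 5 µM replicates were all above the control, and of the 10 µM cultures replicate 2 reached the range of the 5 µM group and replicate 3 came just short of it. The change of MVD was 0.46 (SE 0.11, adjusted p = 0.0165) at 5 µM, and it was not past the test without control replicate 1 (adjusted p = 0.0508) or without control replicate 2 (adjusted p = 0.0539). PMVK, the kinase between MVK and MVD, passed no test, with 256137 ± 27749 (SD, n = 3) in the control against 232254 ± 7707 at 5 µM and 198130 ± 60832 at 10 µM.

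The isoprenoid enzymes IDI1 and FDPS rose as well. IDI1, which isomerizes isopentenyl diphosphate, had an FPKM of 351002, 379562 and 337316 in the control, 444680, 610934 and 539898 with 5 µM and 243969, 437175 and 274784 with 10 µM. Every 5 µM replicate was above the control, and 10 µM replicate 2 stood above the control while replicates 1 and 3 stood below it. Its log2 fold change was 0.57 (SE 0.12, adjusted p = 0.0135) at 5 µM vs. 0 µM, with an adjusted p of 0.0578 without 5 µM replicate 3. FDPS, the farnesyl diphosphate synthase, had 593476, 602410 and 606082 in the control, 875265, 854028 and 790365 with 5 µM and 588558, 707757 and 780960 with 10 µM. It was higher in every 5 µM culture than in every other culture, and at 10 µM 1 replicate was just under the control and 2 were above it. Its change was 0.48 (SE 0.06, adjusted p = 0.00194) at 5 µM vs. 0 µM and 0.20 (SE 0.15, adjusted p = 0.37) at 10 µM vs. 0 µM.

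At the squalene step the enzymes differed. FDFT1, which joins farnesyl diphosphates to squalene, passed no test, with 453047 ± 37562 in the control against 471545 ± 33463 at 5 µM and 376998 ± 88829 at 10 µM (SD, n = 3). SQLE, the epoxidase that follows it and a rate-limiting step of the pathway, had 1061040, 1089320 and 1113490 in the control, 1507090, 1868930 and 1825030 with 5 µM and 801584, 1182620 and 745488 with 10 µM. The 5 µM replicates were the highest of all, and 10 µM replicate 2 was above the control while the other two were below it. SQLE rose by 0.67 (SE 0.10, adjusted p = 0.00306) on the log2 scale at 5 µM vs. 0 µM, and its change at 10 µM vs. 5 µM was -0.95 (SE 0.22, adjusted p = 0.0528), or -0.75 (adjusted p = 0.0218) after median-of-ratios scaling. LSS, which closes the ring to lanosterol, had 158052, 153254 and 162182 in the control, 382547, 321149 and 388506 with 5 µM and 209359, 243962 and 211356 with 10 µM. The 3 groups did not overlap, with the 10 µM replicates between the control and the 5 µM replicates. LSS rose by 1.20 (SE 0.09, adjusted p = 0.000343) at 5 µM vs. 0 µM, the largest change of the sterol branch, was still higher by 0.49 (SE 0.12, adjusted p = 0.0366) at 10 µM vs. 0 µM, and had -0.71 (SE 0.14, adjusted p = 0.0265) at 10 µM vs. 5 µM.

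Among the enzymes that trim lanosterol, TM7SF2, NSDHL and EBP rose and DHCR7 fell at 5 µM. CYP51A1, the lanosterol demethylase, had an FPKM of 493704, 489841 and 497026 in the control, 461084, 566646 and 546740 with 5 µM and 272870, 388726 and 254573 with 10 µM. Its control and 5 µM replicates overlapped, and all 10 µM replicates were below them. CYP51A1 had 0.08 (SE 0.09, adjusted p = 0.471) at 5 µM vs. 0 µM and fell at 10 µM vs. 0 µM, with -0.72 (SE 0.18, adjusted p = 0.0378). TM7SF2, a sterol reductase of the step after it, had 222717, 177850 and 217059 in the control, 455893, 428167 and 408128 with 5 µM and 298259, 369876 and 349411 with 10 µM. The 3 groups were again separate, in the same order as for LSS. TM7SF2 rose by 1.07 (SE 0.10, adjusted p = 0.000714) at 5 µM and by 0.72 (SE 0.15, adjusted p = 0.0229) at 10 µM, each against 0 µM, and after median-of-ratios scaling the rise at 10 µM was 0.96 (adjusted p = 0.00486).

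NSDHL, a sterol dehydrogenase, had 381672, 359489 and 318103 in the control, 479722, 481351 and 506389 with 5 µM and 218180, 335175 and 278266 with 10 µM. The 5 µM replicates were above all others, and 10 µM replicate 2 lay within the control range. NSDHL rose by 0.47 (SE 0.08, adjusted p = 0.00559) at 5 µM vs. 0 µM, and its change at 10 µM vs. 5 µM was -0.84 (SE 0.17, adjusted p = 0.0357). EBP, the sterol isomerase, had 274716, 291107 and 292879 in the control, 451777, 466237 and 433291 with 5 µM and 232049, 324662 and 368949 with 10 µM. Its control and 5 µM replicates were tightly grouped and apart, and the 10 µM replicates spread from below the control to above it. EBP rose by 0.65 (SE 0.06, adjusted p = 0.000652) at 5 µM. HSD17B7 passed no test, with 53162 ± 3462 in the control against 56214 ± 7529 at 5 µM and 37821 ± 7104 at 10 µM (SD, n = 3).

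DHCR7, a reductase of the final steps to cholesterol, went the other way. Its FPKM was 891442, 886594 and 871717 in the control, 725409, 688792 and 803031 with 5 µM and 409505, 667457 and 419575 with 10 µM, so that each control replicate exceeded every treated one. The log2 fold change was -0.26 (SE 0.07, adjusted p = 0.0356) at 5 µM vs. 0 µM and -0.86 (SE 0.21, adjusted p = 0.0351) at 10 µM vs. 0 µM. The fall at 5 µM passed the test in 6 of 16 other settings, and the value was 0.03 after scaling to equal totals. The fall at 10 µM passed in 10 of 16.

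Of the 16 genes that rose at 5 µM, 10 passed in all 16 other settings, which include leaving out each replicate in turn. These were FDPS, MVK, SQLE, LSS, TM7SF2, NSDHL and EBP of the sterol branch and ACSS2, ELOVL6 and FADS1 of the fatty acid branch. The other 6 rises held in at least 13 settings. Some settings could hardly alter a result. None of the genes is on more than 1 entry, so taking the largest entry left their values as they were. A pseudocount of 0.1 and the lack of a filter changed little for genes with high FPKM. A pass in these settings therefore adds little to any count out of 16.

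**Figure D3:**
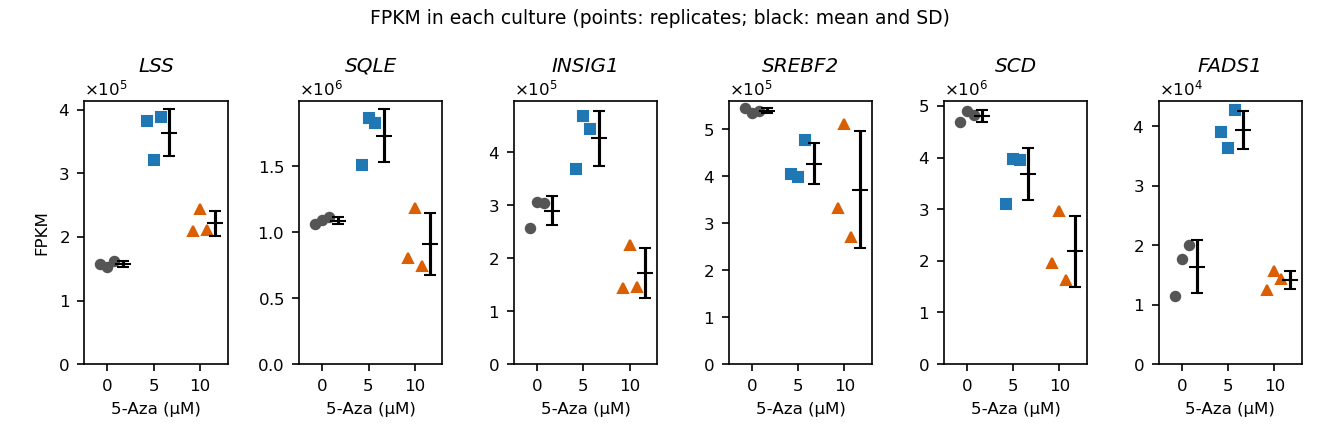
FPKM (y axis, from 0, with its own scale in each panel) of LSS, SQLE, INSIG1, SREBF2, SCD and FADS1 at 0, 5 and 10 µM 5-Aza (x axis). Points are replicates and black bars the mean and SD of 3; LSS, SQLE, INSIG1 and FADS1 were highest at 5 µM, while SCD and SREBF2 were highest in the control.

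In the fatty acid branch, ACSS2, ELOVL6, FADS1 and FADS2 rose and ACLY, ACACA and SCD fell at 5 µM vs. 0 µM. After scaling to equal totals none of these falls passed the test in limma (also 0 at an unadjusted p under 0.05). ACLY, which makes cytosolic acetyl-CoA from citrate, had an FPKM of 695962, 722948 and 632751 in the control, 516476, 546301 and 598287 with 5 µM and 402812, 617611 and 343250 with 10 µM. Each control replicate was above each 5 µM replicate. ACLY fell at 5 µM vs. 0 µM, with -0.31 (SE 0.08, adjusted p = 0.0315). This fall passed the test in 8 of 16 other settings and was lost, at -0.02, after scaling to equal totals. ACSS2, which makes acetyl-CoA from acetate, had 155454, 147862 and 150805 in the control, 249904, 216518 and 235011 with 5 µM and 123200, 138242 and 150856 with 10 µM. Here each 5 µM replicate was above all others. ACSS2 rose by 0.63 (SE 0.07, adjusted p = 0.00126) at 5 µM vs. 0 µM and changed by -0.77 (SE 0.13, adjusted p = 0.0179) at 10 µM vs. 5 µM, or -0.57 (adjusted p = 0.0604) after median-of-ratios scaling. AACS, the cytosolic acetoacetyl-CoA synthetase, passed no test, with 237274 ± 11777 in the control against 262916 ± 12728 at 5 µM and 176516 ± 27436 at 10 µM (SD, n = 3).

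ACACA, the acetyl-CoA carboxylase that commits carbon to fatty acids, had 580930, 560498 and 533145 in the control, 382840, 385136 and 451412 with 5 µM and 386628, 432795 and 284437 with 10 µM. All treated cultures were below all control cultures. ACACA fell at 5 µM vs. 0 µM, with -0.46 (SE 0.09, adjusted p = 0.00713). This fall passed the test in 14 of 16 other settings and was lost, at -0.17, after scaling to equal totals. ACACA had -0.62 (SE 0.17, adjusted p = 0.053) at 10 µM vs. 0 µM. FASN, the fatty acid synthase, passed no test, with 763875 ± 26680 in the control against 643897 ± 79676 at 5 µM and 669624 ± 150669 at 10 µM (SD, n = 3). SCD had 4681030, 4906510 and 4830740 in the control, 3108010, 3970750 and 3962170 with 5 µM and 1948910, 2963640 and 1634910 with 10 µM. The groups were separate at each step, with the control the highest and the 10 µM cultures the lowest. SCD had a log2 fold change of -0.39 (SE 0.13, adjusted p = 0.0489) at 5 µM vs. 0 µM. This fall passed the test in 5 of 16 other settings and was lost, at -0.11, after scaling to equal totals. The value was -1.18 (SE 0.28, adjusted p = 0.0328) at 10 µM vs. 0 µM, which held in 9 of 16. The value at 10 µM was -0.94 (adjusted p = 0.0135) after median-of-ratios scaling and then no longer past 2-fold.

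ELOVL6, which elongates palmitate, had 95203, 101711 and 113324 in the control, 157288, 172755 and 178789 with 5 µM and 115742, 136289 and 82794 with 10 µM. All 5 µM replicates were above all others, and the 10 µM replicates spread on both sides of the control. ELOVL6 rose by 0.72 (SE 0.09, adjusted p = 0.00175) at 5 µM vs. 0 µM. FADS1, the desaturase that makes arachidonate, had 11416, 17641 and 20112 in the control, 39096, 36386 and 42671 with 5 µM and 12547, 15609 and 14270 with 10 µM. It was low in every control and 10 µM culture, and each 5 µM replicate was far above them. FADS1 rose by 1.302 (SE 0.23, adjusted p = 0.00574) at 5 µM vs. 0 µM, past the 2-fold threshold, and fell back at 10 µM vs. 5 µM, with -1.48 (SE 0.18, adjusted p = 0.00682), a call that held in 15 of 16 other settings. At 10 µM vs. 0 µM it had -0.18 (SE 0.28, adjusted p = 0.656).

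FADS2, the desaturase of the first step from linoleate, had 1039, 172 and 608 in the control, 3778, 9201 and 9233 with 5 µM and 1022, 2198 and 916 with 10 µM. These values rest on very few fragments. As multiples of the lowest value, corrected for the library terms, they were 4, 1 and 5 in the control, 35, 81 and 91.5 with 5 µM and 5, 17 and 6 with 10 µM, taken as fragments. The 91.5 lay between whole steps and was entered as 91. Every 5 µM replicate was above every other culture. FADS2 rose by 3.84 (SE 0.77, adjusted p = 0.00997) at 5 µM vs. 0 µM and fell at 10 µM vs. 5 µM, with -2.43 (SE 0.55, adjusted p = 0.0486). The second call held in 6 of 16 other settings. From the pooled fragments and the relative library terms, the ratio of 5 µM to 0 µM was 13.2 (exact 95% interval 7.05 to 28.01) and that of 10 µM to 0 µM was 2.61 (1.23 to 6.03). These intervals cover counting error only, and at 10 µM vs. 0 µM, where the groups overlapped, the log2 fold change over replicates was 1.41 (SE 0.87, adjusted p = 0.28), passing in 0 of 16 other settings. FADS1 and FADS2 overlap on chromosome 11, on opposite strands, and the library kit is not stated to keep strand.

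Of the regulators and carriers, INSIG1 and STARD4 rose and SREBF2 fell at 5 µM vs. 0 µM. SREBF2, the gene of SREBP-2, had an FPKM of 544595, 534545 and 538438 in the control, 405176, 397339 and 477317 with 5 µM and 332662, 510049 and 271011 with 10 µM. Control replicates were close together and above all treated ones, and 10 µM replicate 2 was well above the other two of its group. SREBF2 fell at 5 µM vs. 0 µM, with -0.34 (SE 0.08, adjusted p = 0.0207). This fall passed the test in 9 of 16 other settings and was lost, at -0.056, after scaling to equal totals. SREBF2 had -0.59 (SE 0.23, adjusted p = 0.11) at 10 µM vs. 0 µM. SREBF1, the gene of SREBP-1, had 558447, 530550 and 506203 in the control, 495895, 434905 and 476149 with 5 µM and 406325, 529556 and 413613 with 10 µM. Control replicates exceeded all 5 µM replicates, and 10 µM replicate 2 lay within the control range. SREBF1 passed no test, with -0.18 (SE 0.08, adjusted p = 0.103) at 5 µM vs. 0 µM and -0.25 (SE 0.15, adjusted p = 0.253) at 10 µM vs. 0 µM.

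INSIG1, which retains the SREBPs and is itself one of their targets, had 257707, 305825 and 304675 in the control, 368600, 468901 and 443564 with 5 µM and 143995, 225780 and 145209 with 10 µM. The 5 µM replicates were all above the control, and the 10 µM replicates all below it. INSIG1 rose by 0.56 (SE 0.12, adjusted p = 0.0117) at 5 µM vs. 0 µM, with an adjusted p of 0.0533 without 5 µM replicate 3, and had -1.34 (SE 0.21, adjusted p = 0.0133) at 10 µM vs. 5 µM and -0.78 (SE 0.20, adjusted p = 0.0414) at 10 µM vs. 0 µM. STARD4, a soluble carrier of cholesterol between membranes, had 93308, 98358 and 103238 in the control, 143258, 163362 and 176816 with 5 µM and 56745, 76074 and 34518 with 10 µM. Its order was the same, with 5 µM above the control and 10 µM below it, without overlap. STARD4 rose by 0.71 (SE 0.10, adjusted p = 0.00214) at 5 µM vs. 0 µM, fell at 10 µM vs. 5 µM, with -1.60 (SE 0.28, adjusted p = 0.0206), and had -0.89 (SE 0.27, adjusted p = 0.0669) at 10 µM vs. 0 µM.

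The comparison of 10 µM with 5 µM asks what the higher dose added. In limma, 0 of the 28 genes rose and 8 fell, while 0.319% of all 20085 symbols rose and 5.85% fell. Of the 16203 symbols above 0 in all 6 samples, 56 rose and 805 fell. The 8 were HMGCS1, LSS and NSDHL of the sterol branch, ACSS2, FADS1 and FADS2 of the fatty acid branch, and INSIG1 and STARD4. At an unadjusted p under 0.05 the numbers were 0 and 19, beside 2.84% and 22% of all symbols. FADS1, FADS2, INSIG1 and STARD4 were called past 2-fold down, against 4.82% of all symbols, and 0 were called up, against 0.129%. FASN was the one gene of the 28 with a value above 0, of 0.04. The median change was -0.60 in the sterol branch, -0.63 in the fatty acid branch and -0.79 in the regulators, beside -0.24 over all symbols above 0. After median-of-ratios scaling, which moved that median by 0.20, 0 rose and 9 fell (1.68% and 5.87% of all symbols), with SQLE and CYP51A1 added and ACSS2 lost, and after total scaling 0 rose and 13 fell (0.901% and 7.59%). The count rested on single libraries. Without 10 µM replicate 2, 20 genes fell (19.9% of all symbols, and 1.11% rose), 11 of them in the sterol branch. Without 5 µM replicate 1 or 2 the count was 1, without 5 µM replicate 3 it was 0 in limma (14 at an unadjusted p under 0.05), without 10 µM replicate 1 it was 5 and without 10 µM replicate 3 it was 4.

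In the comparison of 10 µM with 0 µM, 2 genes rose and 4 fell, while 5.39% of all 18928 symbols rose and 9.71% fell. Of the 15261 symbols above 0 in all 6 samples, 798 rose and 1831 fell. At an unadjusted p under 0.05, 2 of the 28 genes were higher and 11 lower, beside 11.3% and 24.2% of all symbols. LSS and TM7SF2 were the 2 that rose, and SCD, DHCR7, CYP51A1 and INSIG1 the 4 that fell. Only SCD was called past 2-fold, downward, and 0 were called up, against 3.4% and 4.07% of all symbols. The median change was -0.29 in the sterol branch, -0.21 in the fatty acid branch and -0.69 in the regulators, beside -0.23 over all symbols above 0. Median-of-ratios scaling moved the latter by 0.24 and left the same 2 rises and 4 falls (10.2% and 9.66% of all symbols), with 0.73 (adjusted p = 0.00431) for LSS, -0.62 (adjusted p = 0.0159) for DHCR7, -0.48 (adjusted p = 0.0217) for CYP51A1 and -0.54 (adjusted p = 0.0323) for INSIG1. With total scaling 4 rose and 2 fell (13.5% and 5.84%). Without 10 µM replicate 2, 2 rose and 18 fell (6.69% and 28% of all symbols), including all 4 regulators and carriers. Without any one control replicate, or without 10 µM replicate 3, 0 rose and 0 fell in limma, and without 10 µM replicate 1, 1 rose and 0 fell. At an unadjusted p under 0.05, 2 genes were higher and 6 to 8 lower in the former cases, and 4 higher and 7 lower in the last.

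To set the branches against each other, the mean log2(FPKM + 1) of each was taken in every culture. The sterol branch averaged 18.10, 18.10 and 18.10 in the control, 18.48, 18.55 and 18.53 with 5 µM and 17.69, 18.23 and 17.87 with 10 µM. The fatty acid branch averaged 17.27, 17.07 and 17.26 in the control, 17.64, 17.78 and 17.91 with 5 µM and 16.89, 17.33 and 16.74 with 10 µM. Both means were higher in every 5 µM culture than in every control culture. The sterol branch minus the fatty acid branch was 0.90 ± 0.11 (SD, n = 3) in the control against 0.74 ± 0.12 at 5 µM and 0.94 ± 0.17 at 10 µM, and the groups overlapped. FADS2 weighed heavily in that difference. With FADS2 left out, the difference was -0.07, -0.17 and -0.16 in the control, 0.12, 0.20 and 0.02 with 5 µM and -0.06, 0.12 and 0.27 with 10 µM. Without FADS2, every 5 µM culture was thus above every control culture, and the lowest 10 µM culture lay just above the control range. Against ACLY, ACACA, FASN and SCD alone, 4 genes picked after their values were seen, the sterol branch stood at -1.95 ± 0.05 in the control against -1.18 ± 0.11 at 5 µM and -1.46 ± 0.25 at 10 µM. Between 5 µM and 0 µM the first difference changed by -0.16, and without FADS2 by 0.25. No p is given for these means over chosen genes, and an exact permutation test of 3 against 3 cannot go below p = 0.1.

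**Figure D4:**
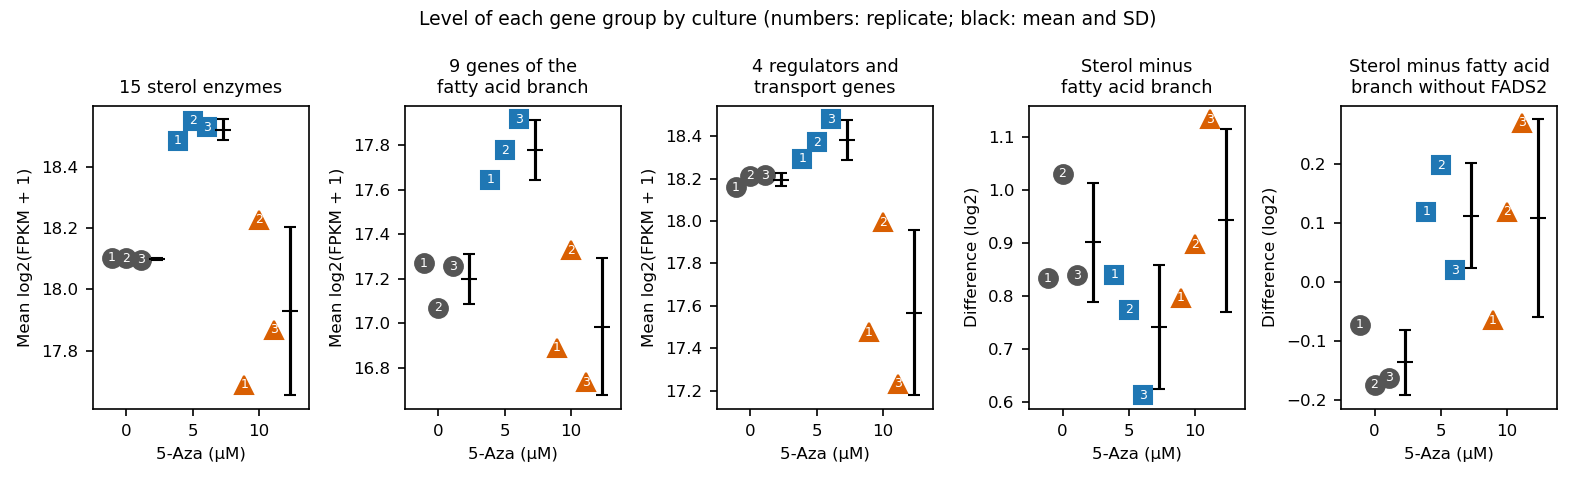
Mean log2(FPKM + 1) of the 15 sterol enzymes, the 9 genes of the fatty acid branch and the 4 regulators and carriers, and the sterol minus fatty acid difference with and without FADS2 (y axes), at 0, 5 and 10 µM 5-Aza (x axis). Numbered points are replicates, black bars the mean and SD; the first 3 means are higher in each 5 µM culture than in each control culture, and 10 µM replicate 2 lies above replicates 1 and 3 in each of them.

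Genes that complete the pathways but are not among the 28 were counted from lists chosen beside them. Of 13 other sterol synthesis genes, 6 rose and 2 fell at 5 µM vs. 0 µM, with a median of 0.27, beside 21.3% and 17.7% of all symbols and a median of 0.14. The called one was C5orf4, a fatty acid hydroxylase family member, at 25741 to 30907 FPKM in the control, 80486 to 97757 at 5 µM and 38946 to 59176 at 10 µM, with a change of 1.69 (SE 0.12, adjusted p = 0.000313) at 5 µM. Of 17 genes that process SREBPs or sense sterols, 3 rose and 6 fell, the rises being below and the falls above the share of all symbols. PAQR3, which tethers the SREBP escort to the Golgi, was called up at 1.00 (SE 0.22, adjusted p = 0.014), and SEC23A, a coat protein of vesicles leaving the endoplasmic reticulum, was called down at 10 µM vs. 0 µM, with -1.02 (SE 0.22, adjusted p = 0.0279).

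Of 31 other genes of fatty acid and glycerolipid synthesis, 10 rose and 6 fell at 5 µM, and 7 were called up, beside 21.3%, 17.7% and 14.1% of all symbols. ACACB, the mitochondrial carboxylase, rose by 1.497 (SE 0.16, adjusted p = 0.000977) and ACSL1, which activates fatty acids, by 1.27 (SE 0.10, adjusted p = 0.000358). SCD5, a second stearoyl desaturase, ranged from 349 to 865 FPKM in the control and from 4078 to 6904 at 5 µM, with a change of 3.33 (SE 0.48, adjusted p = 0.00277). OLAH and ELOVL4 were listed at 0 in all control cultures, and stood at 1518 to 3423 and 117 to 223 FPKM at 5 µM. They are among the 7 called up, but entered the test only through their 5 µM values. The size of their change depends on the 1 added before the log, so these calls carry little weight. ELOVL5, an elongase of polyunsaturated acids, ranged from 0 to 134 in the control and from 3811 to 4897 at 5 µM. These low values rest on few fragments.

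Of 20 genes of sterol transport, storage and the LXR pathway, 6 rose and 6 fell at 5 µM, and 3 were called up, the last close to the 14.1% of all symbols. STARD5, a carrier related to STARD4, rose by 2.48 (SE 0.16, adjusted p = 0.000237) at 5 µM and by 1.18 (SE 0.23, adjusted p = 0.0208) at 10 µM, each against 0 µM. SOAT1, which esterifies cholesterol for storage, rose by 1.09 (SE 0.15, adjusted p = 0.00206), and NPC1L1, the sterol uptake protein of the gut, by 3.69 (SE 0.79, adjusted p = 0.0123). Its FPKM ranged from 160 to 1127 in the control and from 6482 to 8134 at 5 µM. LRP1, a lipoprotein receptor, was called down at 10 µM vs. 0 µM, with -1.11 (SE 0.23, adjusted p = 0.0244). Of 21 genes of fatty acid oxidation, 3 rose and 9 fell at 5 µM, beside 21.3% and 17.7% of all symbols. ECI2, an isomerase of that pathway, was the called one, at 1.91 (SE 0.21, adjusted p = 0.00103). At 10 µM vs. 5 µM, 0 genes of the 5 lists rose, and 2, 1, 2, 2 and 0 fell in the order given, beside 0.319% and 5.85% of all symbols.

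Several values carry a limit of counting. Of the 28 genes, 17 overlap a gene on the opposite strand, such as MVK with MMAB, ACSS2 with GGT7, CYP51A1 with AKAP9 and SREBF1 with RAI1, and without strand the reads of such pairs cannot be told apart. IDI1, FDPS, CYP51A1, HSD17B7, AACS and SCD have named pseudogenes that could share their reads.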

How the data were processed

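RNA of 9 HT-29 cultures, 3 biological replicates at each of 0, 5 and 10 µM 5-Aza, was sequenced as paired-end libraries. The labels gave each sample its group and replicate number. According to the methods of the study, the authors filtered reads with FASTX, mapped these by TopHat (hg19) and used Cufflinks for the deposited FPKM values; the library term of these FPKM values and the strand setting are not given in the sources used here. Each file has 24934 entries, and entries of a repeated symbol (543 symbols) were summed.

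FPKM values were transformed as log2(FPKM + 1). For a symbol listed at 0 in a group, the size of the fold change depends on the 1 added. Symbols reaching 10 in any of the 6 samples of a comparison were fitted with limma 3.58.1 in R 4.3.3. The fit used lmFit, and eBayes with a trend, without a replicate block. Adjusted p-values are Benjamini-Hochberg values over all symbols tested. The 28 genes, the other gene lists and markers, and the tests were chosen with earlier results of these data known. All 28 genes are named. Of the other lists, genes past the 2-fold call in 5 µM or 10 µM vs. 0 µM are named, at most 6 a list by size of change.

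Alternatives were pseudocounts of 0.1 and 1000, no filter, a filter asking for 10 in each of 3 replicates, 1 fit over all 9 samples, a replicate block, median-of-ratios and total scaling, the largest entry of a repeated symbol, no trend, and each replicate left out in turn. A fatty acid branch without FADS2 was added after the data were seen. Fragments were estimated from the steps between low values at 31 microRNA genes of 110 nucleotides and the annotated transcript lengths. Of 738 genes with clean steps, 479 lay within 15% of that length relation, so that no count model was fitted to these estimates. Overlaps and gene lengths came from the GRCh37 annotation. Python 3.11.15 with numpy 2.4.6, pandas 2.3.3, scipy 1.17.1 and matplotlib 3.10.9 was used for tables and figures.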

Additional observations from a re-analysis of the deposited data

How the results depend on the processing

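For 5 µM vs. 0 µM, the 16 rises ranged from 11 (all 9 samples in one fit) to 19 (total scaling), and from 13 to 16 with 1 replicate left out. The 5 falls were 0 with all 9 samples in one fit (1 at an unadjusted p under 0.05 in limma), 0 with total scaling (also 0), 2 with the replicate block, 1 with no trend, and 1 to 4 with a replicate left out. With total scaling the median of the sterol branch was 0.75 and that of the fatty acid branch 0.44. The sterol minus fatty acid change of -0.16 turned to 0.013 with a pseudocount of 1000 and to 0.25 without FADS2.

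For 10 µM vs. 5 µM, the 8 falls were 3 with the replicate block, 13 with total scaling, 2 with no trend, and 0 to 20 with a replicate left out. The 4 calls past 2-fold were 2 with no trend and 0 to 8 with a replicate left out. Median-of-ratios scaling put the medians at -0.39 (sterol) and -0.43 (fatty acid), and without FADS2 the branch difference went from 0.20 to -0.0043.

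For 10 µM vs. 0 µM, the 2 rises were 1 with the replicate block, 4 with total scaling, 0 with no trend and 0 to 2 with a replicate left out. The 4 falls were 10 with all 9 samples in one fit, 2 with the block, 2 with total scaling, 0 with no trend and 0 to 18 with a replicate left out. At an unadjusted p under 0.05, limma with no trend gave 2 higher and 8 lower. The 1 call past 2-fold was 0 with the block, with median-of-ratios scaling and with no trend, and 0 to 3 with a replicate left out. With total scaling the count was also 1, but of another gene. TM7SF2 was then called up, at 1.10, while SCD was at -0.81 and not past 2-fold. The sterol median went from -0.29 to -0.046 with median-of-ratios and 0.092 with total scaling, and the fatty acid median from -0.21 to 0.029 and 0.17, or -0.42 to -0.18 with a replicate left out. Without FADS2 the branch difference went from 0.04 to 0.24. The causes were not tested.

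Genes whose value changed sign did so without passing the test. At 5 µM vs. 0 µM these were PMVK (0.15), DHCR7 (0.027), FASN (0.033) and SREBF1 (0.10) with total scaling, and FDFT1 (-0.012 to 0.12) and HSD17B7 (-0.032 to 0.15) over the replicates left out. At 10 µM vs. 5 µM they were ACACA (0.042) with median-of-ratios scaling, SREBF1 with median-of-ratios (0.13) and total scaling (0.023), and, over the replicates left out, ACACA (-0.29 to 0.013) and FASN (-0.13 to 0.18). At 10 µM vs. 0 µM, median-of-ratios and total scaling gave 0.11 and 0.25 for MVK, 0.036 and 0.17 for IDI1, 0.10 and 0.24 for ACSS2, 0.029 and 0.17 for FASN, and 0.063 and 0.20 for FADS1. Total scaling alone gave 0.092 for FDFT1, 0.091 for SQLE, 0.012 for NSDHL and 0.13 for SREBF1. With a replicate left out, EBP ranged from -0.060 to 0.27 and ELOVL6 from -0.075 to 0.28.

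The labels do not state that replicate numbers pair the samples, and no pairing was seen. Correlations of deviations from the group means were -0.07 to 0.09 for the 9 same-numbered pairs and -0.16 to 0.10 for the 18 others, so the counts with the block stand here only. Precision is limited most for FADS2, which rests on a few fragments per control culture, and by the spread within the 10 µM group.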
